A study of Homo sapiens with 6 samples.

Results

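SERBP1, PABPC1 and PABPC4 encode proteins that sit on messenger RNA in the cytoplasm. Their splice junctions were followed in 6 poly(A)+ RNA libraries of K562, a human chronic myeloid leukaemia cell line. In all, 3 libraries came from cells labelled U2AF1 wild type knock-in and 3 from cells labelled U2AF1 S34F, with replicates numbered 1 to 3 in each group. U2AF1 is the smaller partner in the splicing factor U2AF and contacts the AG that closes an intron. S34F puts phenylalanine in place of serine within a zinc finger of that protein. The labels give no treatment or time, do not say whether replicates were separate cultures or how many clones were used, and do not state how the mutation was introduced. The p-values therefore measure only the spread between these libraries, which may be technical. The members were all junctions on the minus strand inside one hg19 window per gene. They ran on chromosome 1 from 67876064 to 67895896 for SERBP1 (NCBI gene 26135), on chromosome 8 from 101715579 to 101734280 for PABPC1 (gene 26986) and on chromosome 1 from 40026795 to 40042223 for PABPC4 (gene 8761). This gave 46, 83 and 75 junctions, or 204 of the 780566 junctions listed in the 6 tables. The genes were chosen by splice site shares measured in these same libraries, namely those of a pair of SERBP1 acceptors and of an exon of PABPC4. The values of these events, and of every event that shares a junction with them, are therefore given without a test.

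PABPC1 and PABPC4 are paralogs that bind the poly(A) tail through RNA recognition motifs at their N-terminal end. They contact the translation initiation factor eIF4G, and a C-terminal domain binds regulators of translation and of tail shortening. PABPC1 is the main form in most cells, while PABPC4, also called inducible poly(A)-binding protein, was described in activated T cells and has a known role in erythroid cells. SERBP1 is an RNA-binding protein found on messenger RNA and on ribosomes that are not translating. In SERBP1 and PABPC4, splicing within the coding part yields several protein forms, and RefSeq lists 4 curated proteins for SERBP1, 3 for PABPC4 and 2 for PABPC1.

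The libraries held from 18074706 uniquely mapped spliced reads (S34F replicate 2) to 39279169 (S34F replicate 3). Between 5791 and 19111 unique junction reads per library lay in PABPC4, 8990 to 25395 in SERBP1 and 46557 to 133571 in PABPC1. Annotated junctions carried 99.5% of the unique reads in PABPC4, 99.6% in SERBP1 and 99.9% in PABPC1, and all 65 annotated ones had a unique read. Most junctions were rare: 30 of 46 in SERBP1, 50 of 83 in PABPC1 and 45 of 75 in PABPC4 had under 10 unique reads over the 6 libraries. Multi-mapped reads made up 1.502% to 1.978% of the spliced reads in PABPC1, which has near-identical processed copies elsewhere in the genome, 2.16% to 2.87% in PABPC4 and 3.55% to 4.36% in SERBP1. The identity of the cells was not checked against marker genes here.

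The amount of spliced RNA was compared first. It was taken as the unique reads of all junctions of a gene, scaled to reads-per-million (RPM) of the unique spliced reads of the library. This level grows with the number of introns and is not compared between genes. SERBP1 had 460, 667 and 518 RPM in wild-type replicates 1 to 3, and 509, 497 and 647 RPM in the S34F replicates. The means, 548 ± 107 and 551 ± 82.8 (SD, n = 3 each), differed by far less than the spread (two-sided exact permutation p = 1, adjusted p = 1 over the 3 genes). PABPC1 levels were 2442, 3183 and 3045 RPM in the wild-type libraries, against 3432, 2576 and 3401 RPM in the S34F libraries. Its means of 2890 ± 394 and 3136 ± 485 also lay within the spread (exact permutation p = 0.5, adjusted p = 0.75). PABPC4 levels kept to a narrow range in the wild-type libraries, at 304, 318 and 299 RPM, and were 297, 382 and 487 RPM in the S34F libraries. S34F replicate 1 lay below all wild-type libraries and the other S34F replicates above them, so that the groups overlapped. Its means were 307 ± 9.96 and 389 ± 94.7, a ratio of 1.27 (exact permutation p = 0.4, adjusted p = 0.75). With 3 libraries against 3 the smallest p this test allows is 0.1.

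**Figure D1:**
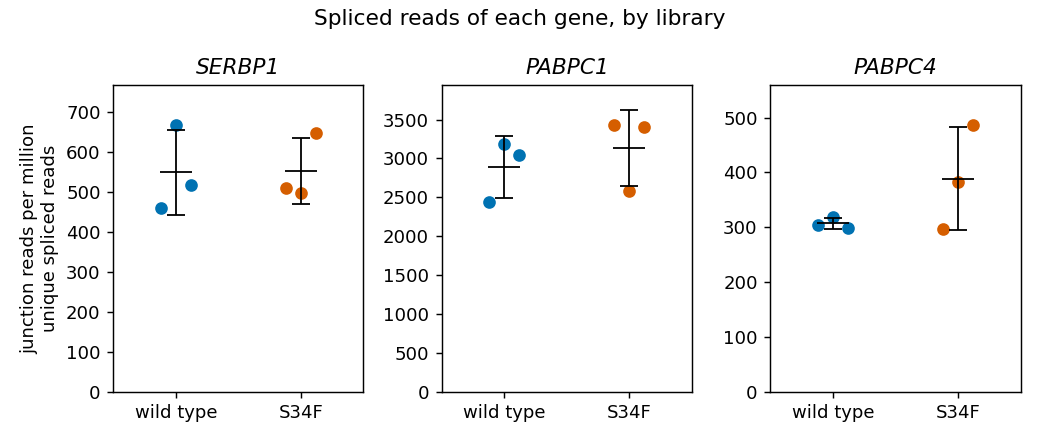
Unique junction reads in RPM of SERBP1, PABPC1 and PABPC4 (vertical axes, each starting at 0) in the 3 wild-type and 3 S34F libraries; points are libraries and bars the mean ± SD. The groups overlap in each gene, and the S34F libraries of PABPC4 spread from 297 to 487.

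Junction by junction, edgeR's quasi-likelihood test called none of the 50 annotated junctions of the genes that passed the count filter and had no part in the choice. The background was 229 of 112956 annotated junctions, or 0.203%, at an adjusted p under 0.05. An unadjusted p under 0.05 was reached by 4 of the 50, and DESeq2 called none. The log2 fold change from wild type to S34F was above 0 at 16 of 17 PABPC4 junctions, with a median of 0.35, at 25 of 26 PABPC1 junctions, with a median of 0.11, and at 3 of 7 SERBP1 junctions, with a median of -0.02. The median over all junctions tested was 0.01. Without wild-type replicate 1, the change was above 0 at only 16 of 26 PABPC1 junctions, with a median of 0.04, and at 0 of 7 SERBP1 junctions. In PABPC4 the count stayed at 16 of 17. Junctions of one gene share its transcripts and are not independent. In bulk RNA, fewer cells with a transcript and less of it per cell cannot be told apart.

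The principal introns, each taking at least 50% of the wild-type reads at both of its splice sites, numbered 7 in SERBP1, 14 in PABPC1 and 15 in PABPC4. Reads varied along each gene in both groups. In SERBP1, intron 3 (105 nt, to the upstream of a pair of acceptors) had a mean of 40.4 RPM in wild type and intron 5 (4013 nt) had 119 RPM. In PABPC4 the introns on either side of the 87 nt exon were lower than all others, at 10.3 and 9.52 RPM in wild type and 8.07 and 8.23 RPM in S34F, while the other 13 introns had higher means in S34F than in wild type. In PABPC1 all 14 introns had means from 136 to 251 RPM in wild type and from 148 to 282 RPM in S34F. These means are a description and carry no test.

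**Figure D2:**
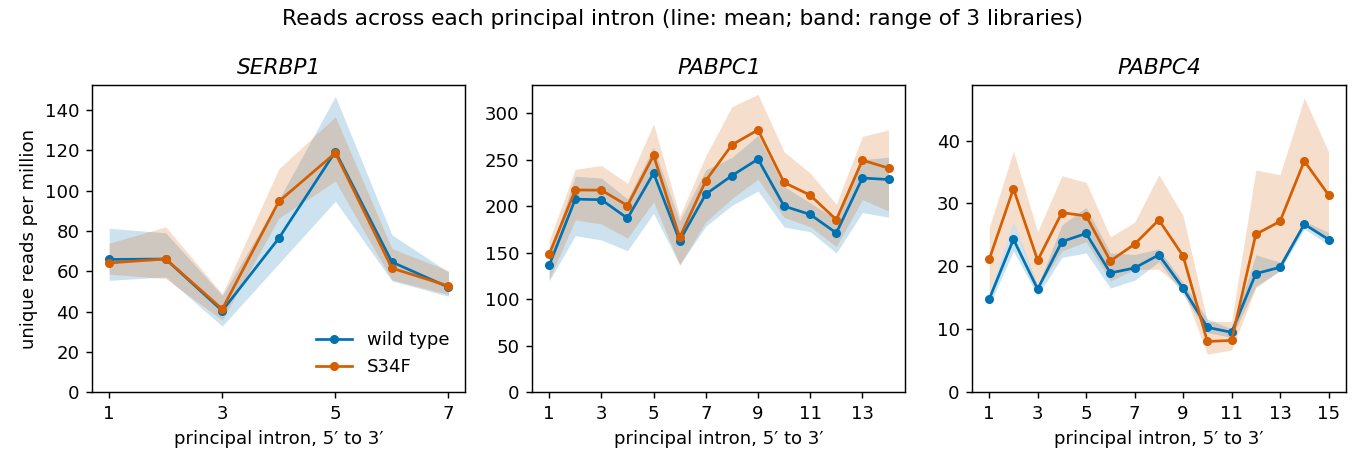
Unique reads in RPM across each principal intron, numbered 5′ to 3′, in SERBP1, PABPC1 and PABPC4; lines are means and bands the range of 3 libraries per group. In PABPC4 the S34F mean is above the wild-type mean at all introns except the 10th and the 11th, which flank the 87 nt exon.

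SERBP1 has a pair of annotated acceptors 45 nt apart at the end of intron 4, joined to the donor at 67890570. With the downstream acceptor the next exon runs from 67889883 to 67889960 and has 78 nt. With the upstream acceptor it reaches to 67890005 and gains the length of 15 codons, so the frame is kept either way. The upstream acceptor took 458 of 2081 reads in wild-type replicate 1, 702 of 3084 in replicate 2 and 436 of 1786 in replicate 3, or 22.0%, 22.8% and 24.4%. In S34F it took 204 of 2238, 151 of 1711 and 365 of 4717, or 9.12%, 8.83% and 7.74%. All S34F libraries were low and all wild-type libraries high, with no overlap. The mean share went from 23.1% ± 1.23 to 8.56% ± 0.726 (n = 3 each), a difference of -14.5 percentage points. The 95% Clopper-Pearson intervals of single libraries reached at most 2.02 points to either side. They cover counting error only, as PCR copies of a molecule cannot be told apart here. The downstream acceptor itself had means of 76.3 RPM in wild type and 94.6 RPM in S34F. Intron 3 just upstream had 40.4 and 41.2 RPM, and intron 5 just downstream 119 RPM in both groups.

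A second pair of SERBP1 acceptors lies in the neighbouring upstream intron, 18 nt apart at 67890661 and 67890643, and joins the donor at 67890765. It adds or leaves out 6 codons' length. Here the upstream acceptor took 49.3%, 49.4% and 53.9% in wild type, against 49.8%, 51.9% and 49.2% in S34F. The groups overlapped throughout. The means were 50.9% ± 2.60 and 50.3% ± 1.40, with a change in log2 odds of -0.03 (SE 0.17, edgeR adjusted p = 0.965) on 1363 to 3893 reads per library. Both SERBP1 acceptor choices keep the frame. The 45 nt pair separated the groups and the 18 nt pair did not, but the difference between them was not tested. Over all genes, edgeR called 162 of 5684 acceptor pairs at most 100 nt apart (2.85%) at an adjusted p under 0.05 and a difference of at least 10 percentage points, and 6.53% at the adjusted p alone. Outside the 45 nt pair, 5 pairs in the 3 genes could be tested and none was called by either rule. An unadjusted p under 0.05 was reached by 1 of them, and DESeq2 and limma also called none.

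**Figure D3:**
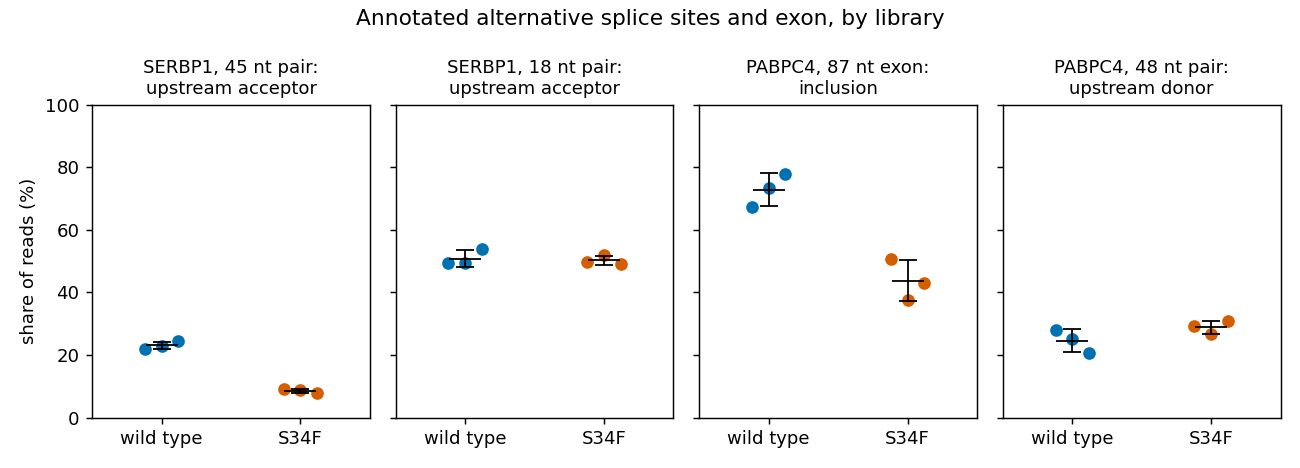
Share of reads in percent (vertical axes, 0 to 100) for 4 annotated choices in the 3 wild-type and 3 S34F libraries; points are libraries and bars the mean ± SD. The SERBP1 45 nt pair and the PABPC4 87 nt exon separate the groups and belong to the choice of the genes, while the SERBP1 18 nt pair and the PABPC4 48 nt donor pair overlap.

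SERBP1 exons were otherwise included nearly always. Of its 6 internal exons, 3 had a unique read on the junction that joins the neighbouring exons, the measure of skipping used here, and 5 lay inside some junction with a unique read. Skipping of internal exon 5, of 178 nt, by an unannotated junction chosen after its values were seen took 1.04%, 0.0357% and 0.349% in wild type, against 0.394%, 0.889% and 0.633% in S34F. Wild-type replicate 1 was thus the highest of the 6 libraries, and inclusion did not pass the test (log2 odds -0.61, edgeR adjusted p = 0.614). Skipping of internal exon 3 lay between 0.374% and 0.527% in all libraries. At the acceptor at 67890643, an unannotated donor at 67891845, whose junction spans internal exon 2 and was also chosen after its values were seen, took 0.681% of the reads in wild type and 1.55% in S34F on average, which did not pass either (edgeR adjusted p = 0.167). This junction had 4, 5 and 8 reads in wild type, against 10, 10 and 41 in S34F. The share in wild-type replicate 3 lay above that in S34F replicate 1, so the groups overlapped.

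PABPC4 has an 87 nt annotated exon whose 5′ edge lies at 40029594, its internal exon 10, which holds the length of 29 codons and can be skipped in frame. Inclusion was the mean of the reads entering and leaving the exon, divided by that mean plus the skipping reads. It was 67.4%, 73.4% and 77.9% in wild-type replicates 1 to 3, and 50.6%, 37.5% and 43.1% in the S34F replicates. The lowest wild-type library lay above the highest S34F library. The mean went from 72.9% ± 5.27 to 43.8% ± 6.58 (n = 3 each), a difference of -29.1 percentage points. Read from its downstream junction alone, inclusion was 69.0% ± 4.66 and 39.6% ± 7.29. Read from its upstream junctions alone, it was 75.8% ± 5.54 and 47.3% ± 5.99. The skipping reads themselves numbered 142, 98 and 68 in wild type, against 174, 248 and 705 in S34F. Depth was modest here, with 258 to 1147 reads per library over the downstream junction and the skipping reads, and the intervals there reached up to 5.55 points to either side.

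The exon before it has 2 annotated donors 48 nt apart, at 40030142 and 40030094, which end the exon at 72 or 120 nt, 16 codons apart in length. Both donors join either the 87 nt exon or the exon after it, so that 4 combinations occur. From the upstream donor at 40030142, inclusion of the 87 nt exon was 67.4%, 74.5% and 83.8% in wild type, against 53.2%, 45.1% and 45.01% in S34F. From the downstream donor at 40030094 it was 70.9%, 77.5% and 80.1%, against 53.6%, 40.2% and 47.9%. The differences were -27.5 and -28.9 percentage points, of like size from both donors. The donor choice itself differed less between the groups. Over all 4 junctions the upstream donor took 28.0%, 25.2% and 20.8% in wild type, against 29.1%, 26.7% and 30.9% in S34F, with overlapping groups. Among reads that enter the exon it took 24.3% ± 2.72 in wild type and 29.2% ± 0.326 in S34F, without overlap, and among reads that skip it 25.2% ± 6.65 and 28.8% ± 3.56. These events share junctions with the 87 nt exon and were not tested.

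The other annotated choices of PABPC4 lay further from it and did not pass. Its internal exon 8, of 88 nt, was skipped in 11.0%, 4.34% and 4.94% of the reads in wild type and in 6.98%, 9.40% and 8.62% in S34F. Wild-type replicate 1 was the highest library and the groups overlapped; inclusion changed by -0.39 in log2 odds (SE 0.41, edgeR adjusted p = 0.607). A pair of donors 137 nt apart, at 40036905 and 40036768, gave the downstream donor 26.0%, 17.1% and 21.8% in wild type, against 18.5%, 18.9% and 21.0% in S34F (log2 odds -0.18, SE 0.35, edgeR adjusted p = 0.856). Their distance is not a multiple of a codon. A donor 15 nt upstream of the main one took 1.46% to 3.76% of the reads across the libraries. It had 10, 14 and 5 unique reads in wild type but 23, 20 and 13 multi-mapped ones. In S34F it had 12, 8 and 43 unique and 11, 19 and 47 multi-mapped reads, so its share of unique reads may not give its level. Another donor, 43 nt upstream of the main donor of the last intron, took 1.80% to 2.76% in wild type and 1.03% to 1.91% in S34F. An annotated intron at the 5′ end, from the donor at 40042223 to the acceptor at 40041896, had 6, 5 and 3 reads in wild type, against 2, 1 and 12 in S34F, too few to test.

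Unannotated junctions took a small share of the reads of each gene. In PABPC4 their share was 0.310%, 0.240% and 0.328% in wild type, against 0.774%, 0.680% and 0.502% in S34F, so that the groups did not overlap. The exact permutation p was 0.1, the smallest possible, and 0.3 after adjustment over the 3 genes. In PABPC1 the share was 0.0588% ± 0.0289 in wild type and 0.107% ± 0.0349 in S34F (exact permutation p = 0.2, adjusted p = 0.3), and in SERBP1 0.308% ± 0.106 and 0.451% ± 0.115 (exact permutation p = 0.3, adjusted p = 0.3). Both overlapped between the groups.

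Exon skipping in the 5′ part of the transcripts held a large share of the unannotated reads of the poly(A)-binding protein genes. In PABPC1, 165 of 380 such reads over the 6 libraries skipped a single exon, and in PABPC4 84 and 43 of 259 skipped one of a pair of exons. The first 7 internal exons of PABPC1 and PABPC4 have the same lengths in the same order, 194, 116, 140, 95, 138, 96 and 273 nt. By unique reads, the exons among these 7 whose skipping separated the groups were not at the same place in the paralogs. This difference was not tested. At the place of the PABPC1 exon, the matching PABPC4 junction had mostly multi-mapped reads, so the paralogs cannot be compared there. The skips were picked after their values were seen, and each took a small share of the reads. Skipping was again read from the junction that joins the neighbouring exons.

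In PABPC1 it was internal exon 4, of 95 nt, from 101725315 to 101725409, a length that is not a multiple of a codon. The skipping junction had 18, 2 and 2 reads in wild type, against 30, 37 and 76 in S34F. Skipping was 0.409%, 0.0340% and 0.0456% in wild type, against 0.495%, 1.09% and 0.796% in S34F. Wild-type replicate 1 stood close to S34F replicate 1 and far from the other wild-type libraries, but the groups did not overlap. Inclusion fell by 2.42 in log2 odds (SE 0.61, edgeR adjusted p = 0.0294). For the exon of the same length in PABPC4, the matching junction is annotated. It had 1 unique read over the 6 libraries but 3, 5 and 6 multi-mapped reads in wild type, against 8, 5 and 19 in S34F, so that unique reads do not give its level. Over all junctions that span this exon there were 9 unique reads.

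In PABPC4 it was the next exon, of 138 nt, from 40034474 to 40034611, which holds the length of 46 codons. The skipping junction had 8, 0 and 0 reads in wild type, against 27, 16 and 33 in S34F, or 1.60%, 0% and 0% against 5.24%, 3.63% and 2.81%. The counts of 0 allow shares of up to 0.467% and 0.732% in wild-type replicates 2 and 3. Inclusion fell by 2.89 in log2 odds (SE 0.72, edgeR adjusted p = 0.0278). For the exon of that length in PABPC1, the matching junction had 2 reads in wild type and 3 in S34F, among 3089 to 8720 reads per library.

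Internal exon 7 of PABPC4, of 273 nt, from 40030778 to 40031050, was skipped in 2, 1 and 0 reads in wild type, against 6, 9 and 25 in S34F. This was 0.389%, 0.179% and 0% against 1.29%, 1.88% and 2.03%, where the count of 0 allows up to 0.778%. Inclusion was lower by 2.99 in log2 odds (SE 0.71, edgeR adjusted p = 0.0225), but here too the filter was met only through the S34F libraries. For the exon of 273 nt in PABPC1, the matching junction had 0 reads in wild type and 2 in S34F. In the 3′ part, internal exon 14 of PABPC4, of 103 nt, had 0 skipping reads in wild type and 2, 3 and 3 in S34F, which was too few to test.

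**Figure D4:**
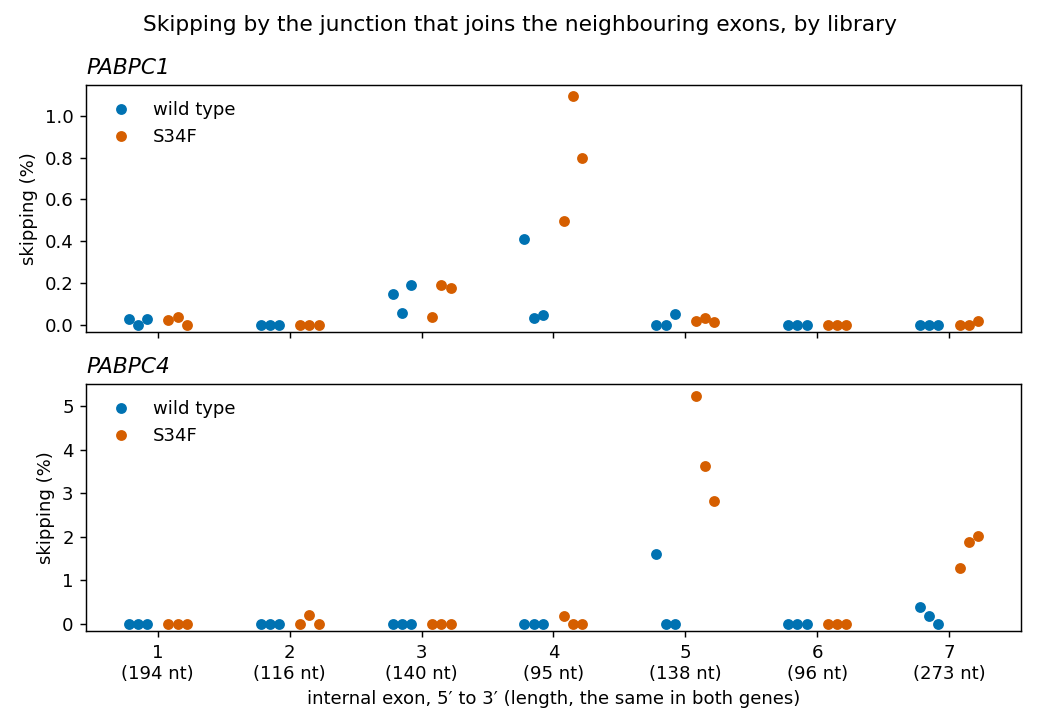
Share of unique reads in percent on the junction that joins the neighbours of each of the first 7 internal exons, in PABPC1 (top, up to 1.09%) and PABPC4 (bottom, up to 5.24%; the vertical scales differ), numbered 5′ to 3′; each point is a library. Other junctions that span an exon, such as the annotated one over exon 6 of PABPC1, are not plotted. Exon 4 of PABPC1 and exons 5 and 7 of PABPC4 have all S34F libraries above all wild-type libraries, with wild-type replicate 1 the highest of its group.

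These skips were below the difference of 10 percentage points required of a call. Outside the events that belong to the choice, edgeR called 0 of 19 cassette exon combinations of the genes (background 2.49% of 19137), 0 of 37 junctions by acceptor usage (background 2.12% of 51522) and 0 of 44 by donor usage (background 0.934% of 48269). At an adjusted p under 0.05 alone it found 4, 6 and 7, all in PABPC1 and PABPC4 and none in SERBP1, against backgrounds of 5.49%, 4.64% and 2.04%. All but 1 of these 17 belong to the 3 skipped exons. The skipping junctions of both PABPC4 exons had fewer than 10 reads in wild type, as had the remaining event, an unannotated PABPC1 donor described below. They met the filter only through the S34F libraries, so their adjusted p-values are no support for a difference. An unadjusted p under 0.05 was reached by 4, 6 and 10. At the adjusted p alone DESeq2 found 1 exon, that of PABPC1, and 0 by acceptor or donor usage, and limma on log2 odds found 0 in all 3 classes.

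Whether the skips passed the threshold also depended on single libraries. Without single libraries, the change in log2 odds ran from -4.22 to -1.82 for the PABPC1 exon. It ran from -7.52 to -2.15 for the 138 nt exon of PABPC4 and from -3.83 to -2.59 for the 273 nt exon. As the groups did not overlap, leaving out a library could not reverse these changes, and the ranges only describe their size. The PABPC1 exon missed the threshold without wild-type replicate 2 (edgeR adjusted p = 0.102) and without S34F replicate 1, 2 or 3 (0.0709, 0.130 and 0.166). The 138 nt exon of PABPC4 did so without the same libraries (0.0945, 0.116, 0.103 and 0.134), and the 273 nt exon likewise (0.0766, 0.0585, 0.0842 and 0.139). With multi-mapped reads added, the first 2 exons missed it as well (0.0558 and 0.0627). Without wild-type replicate 1, which held 18 of the 22 wild-type skipping reads at the PABPC1 exon and all 8 at the 138 nt exon, the edgeR adjusted p-values were 0.000371, 0.000416 and 0.0103 in the same order. Wild-type replicates 2 and 3 held only 2 and 2, 0 and 0, and 1 and 0 skipping reads. The filter was then met only through the S34F libraries, so these smaller p-values are no added support. By donor usage, no event passed without wild-type replicate 2 or 3 or any single S34F replicate. Whether a difference of wild-type replicate 1 from the other wild-type libraries has a part in these results was not tested.

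In PABPC1 the annotated alternatives with more than a few percent of the reads lay at the 5′ end. An intron with its acceptor at 101733848 was spliced in 46 to 186 reads per library, from 3 donors at 101733940, 101733956 and 101733961. The most 3′ of them, at 101733940, took 70.1%, 70.7% and 74.6% in wild type, against 46.2%, 73.9% and 61.8% in S34F. S34F replicates 1 and 3 were low and replicate 2 was within the wild-type range (log2 odds -0.79, SE 0.45, edgeR adjusted p = 0.388). Intervals here reached up to 13.4 points to either side. The donor at 101733961 also joined an annotated acceptor at 101733681, with 2, 3 and 1 reads in wild type, against 4, 2 and 8 in S34F. This was 10% to 25% of the donor's reads in every library, too few to test. A donor at 101733956 joined the same acceptor in 0 reads in wild type and in 2, 0 and 3 in S34F.

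At the next acceptor but one, at 101730117, 3 annotated donors were in use. The main donor at 101730314 took 95.3%, 96.2% and 95.9% in wild type, against 95.02%, 95.1% and 94.4% in S34F, groups that did not overlap, with a mean difference of -0.938 points (log2 odds -0.31, SE 0.32, edgeR adjusted p = 0.684). A donor 96 nt upstream, at 101730410, took 1.13%, 0.615% and 0.757% in wild type, against 1.69%, 1.22% and 1.58% in S34F. It was higher in all S34F libraries and did not pass (log2 odds 0.88, SE 0.36, edgeR adjusted p = 0.198). Its junction had 51, 37 and 34 unique reads in wild type but 54, 56 and 49 multi-mapped ones. In S34F it had 100, 43 and 149 unique and 79, 45 and 118 multi-mapped reads, so its share of unique reads may not give its level. An unannotated donor 5 nt further upstream, chosen after its values were seen and lying at 101730415, had 0, 0 and 1 reads in wild type, against 9, 2 and 11 in S34F. It passed on the adjusted p alone (edgeR adjusted p = 0.0418), from 23 reads in all, and was not found by DESeq2 (adjusted p = 0.149) or limma (adjusted p = 0.137). The donor 144 nt upstream, at 101730458, took 3.11% to 3.85% in all libraries.

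Further downstream in PABPC1, the annotated alternatives described next took under 5% of the reads in every library, and none passed. A donor 9 nt upstream of the main one took 3.14% to 4.13% in wild type and 3.16% to 3.35% in S34F. From the donor of internal exon 7, an annotated acceptor inside internal exon 10 took 2.99% ± 0.325 and 3.08% ± 0.374 of the reads. From the donor of internal exon 5, an annotated acceptor inside internal exon 7, which leaves out internal exon 6, took 2.28% ± 0.315 and 2.28% ± 0.0143. That junction had 82, 122 and 65 unique reads in wild type but 123, 173 and 136 multi-mapped ones, so its share of unique reads may not give its level. An acceptor pair 27 nt apart gave the downstream site 0.325% ± 0.0736 and 0.393% ± 0.0574. A pair 58 nt apart gave it 0.220%, 0.268% and 0.279% in wild type, against 0.301%, 0.540% and 0.435% in S34F, higher in all S34F libraries (edgeR adjusted p = 0.287). This downstream site had 10, 16 and 12 unique reads in wild type but 54, 77 and 68 multi-mapped ones. In S34F it had 18, 18 and 42 unique reads but 78, 61 and 116 multi-mapped ones. Its share of unique reads may therefore not give its level or the order of the libraries. All 13 internal exons of PABPC1 lay inside at least 1 junction with a unique read, though 6 of them had no read on the junction that joins the neighbouring exons.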

How the data were processed

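Each library had 1 deposited table of 9 columns without a header. Per the submitters' processing notes, reads were aligned with STAR to hg19; the version, annotation and junction filters are not given in the sources used here. The authors deposited raw counts of uniquely mapped and of multi-mapped reads per junction and the largest overhang in nt. The tables were joined by position and a missing junction counted as 0. Unless stated otherwise, values are unique reads.

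Splice site events were built over all genes: junction shares at each donor and acceptor, acceptor pairs at most 100 nt apart, and cassette exons of at most 500 nt. They needed 20 reads in every library and 10 on each side (for exons, on each junction). Tests used edgeR 4.0.16 (quasi-likelihood, robust; legacy mode) with a term per library, a term for count type and 1 for how that type differs in S34F; exon inclusion reads were rounded. A call needed an adjusted p (Benjamini-Hochberg within the class) under 0.05 and 10 percentage points between group means. Junction levels used TMM scaling. The tests were tried on simulated counts. Alternatives used DESeq2 1.42.0, limma 3.58.1 with 0.5 added to each count, other filters, multi-mapped reads, a replicate block and leaving out each library. R 4.3.3 and Python 3.11.15 were used.

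The members and lists were chosen with earlier results of these data known. Within the genes, the text names annotated alternatives with a share between 5% and 95% in a group mean, and calls; rarer ones were chosen after their values were seen. Principal introns also needed at least 20% of the gene's typical intron reads. No hg19 genome or annotation was used, so sequences, coding and untranslated parts, other genes of the pathway and marker genes were not analysed here. RefSeq names and protein counts come from its GRCh38.p14 table; all 3 genes matched.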

Additional observations from a re-analysis of the deposited data

How the results depend on the processing

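When each library was left out, the SERBP1 45 nt pair ran from -15.0 to -13.8 percentage points and the PABPC4 87 nt exon from -32.5 to -26.0. Both events belong to the choice of the genes and their groups do not overlap. Leaving out a library could therefore not reverse them, and these ranges only describe their size. The SERBP1 level difference of 2.79 RPM had no stable direction: it was -1.82 with multi-mapped reads, -3.66 with TMM library sizes, and -44.9 to 62.1 without single libraries. Leaving out libraries gave 22.0 to 526 for PABPC1 and 32.8 to 127 for PABPC4. Without the minimum difference, calls outside the choice of the genes went from 0 to 6 for acceptor usage, 7 for donor usage and 4 for cassette exons; they stayed at 0 under the other settings run. With no low-count filter 1 junction level was called, the PABPC1 donor at 101730410 (edgeR adjusted p = 0.0191). Of the changes in log2 odds, the SERBP1 18 nt pair ranged from -0.0774 to 0.0511 and the PABPC4 137 nt donor pair from -0.374 to 0.0180 without single libraries, and so changed sign. Adjusted p-values over the alternatives ran from 0.000371 to 0.166 for the PABPC1 exon, 0.000416 to 0.134 for the PABPC4 138 nt exon and 0.0103 to 0.139 for its 273 nt exon. The lowest of each came without wild-type replicate 1, where the filter was met only through the S34F libraries. Same-numbered libraries did not deviate together (correlations of -0.181, -0.138 and -0.016 over 112956 junctions), so the numbers were not taken as pairs. With the replicate block the calls stayed at 0 and the 273 nt exon missed the threshold (edgeR adjusted p = 0.0532); the exact sign-flip test of same-numbered libraries cannot go below 0.25. The causes were not tested. Depth limits the rarest events, which rest on 0 to 76 reads per library.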
